A study of Mus musculus with 4 samples.

Results

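Ccl3/Ccl4-high B cells were a small set of cultured mouse B cells that carried many transcripts of the chemokine genes Ccl3 and Ccl4. They were chosen by a rule on measured values. A member had at least 5 UMIs of Ccl3 plus Ccl4, fewer than 5 UMIs of Jchain (the joining chain of secreted antibody), and fewer than 10 UMIs summed over 8 genes of dividing cells (Mki67, Top2a, Birc5, Cenpf, Ube2c, Cdk1, Hmmr, and Tpx2). It lay in library 5 or 6, had at least 1000 detected genes, and had under 10% mitochondrial UMIs. A UMI (unique molecular identifier) stands for 1 captured mRNA molecule. By this rule there were 213 members, of 18534 cells that passed the limits on genes and mitochondrial UMIs and of 19920 barcodes in all. Library 5 held 105 members and library 6 held 108. The comparison cells were the 8018 cells of the same libraries that met the other limits and had fewer than 5 UMIs of Ccl3 plus Ccl4.

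Single-cell RNA was measured in enriched splenic B cells of WT C57BL/6 (B6) mice, 6 to 12 weeks of age. Bregs-CpG (2 samples) were kept for 3 days in 10 μg/mL of the oligonucleotide CpG B ODN 1668, a ligand of Toll-like receptor 9. Bregs-TLR (2 samples) had the same culture and, in its final 5 hours, also ionomycin at 1 μg/mL, PMA at 50 ng/mL, and LPS at 10 μg/mL. All samples thus shared the strain, the genotype, and the CpG culture, and no sample without CpG entered the values below. About 5000 cells went into each library. The barcodes number the libraries 5 to 8 and name no sample, so the culture of libraries 5 and 6 cannot be stated. They were treated as 1 pooled sample with each library shown by itself, and no p-value was computed. All intervals are 95% intervals for counting error only, and they contain no variation between mice or cultures. PCR duplicates are collapsed by UMIs, but cells of 1 library share that library.

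Ccl3 and Ccl4 (MIP-1α and MIP-1β) are secreted chemokines that draw T cells, monocytes, and NK cells through chemokine receptors on those cells. In B cells both genes are known as targets of antigen receptor and Toll-like receptor signaling, and activated B cells use them to attract T cells. Il4i1 is a secreted amino acid oxidase, Grn encodes the lysosomal and secreted protein progranulin, Bcl2a1b belongs to the anti-apoptotic Bcl2 family, and Ly6k is a member of the Ly6 family of membrane-anchored proteins. These 4 genes were given as markers of the cells beside Ccl3 and Ccl4.

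On mouse chromosome 11 (GRCm38), Ccl3 lies at chr11:83647844-83649355 on the minus strand and Ccl4 at chr11:83662584-83664683 on the plus strand, with 13228 bases between them. The 250 bases before the Ccl3 start in RefSeq (GRCm38.p6), chr11:83649379-83649628 on the minus strand, are shown because this gene and its neighbor define the members. Ccl4 and Ly6k were not matched in the promoter table. None of the 6 motifs searched on both strands was found in this window (E-box CACGTG, CRE TGACGTCA, AP-1 TGANTCA, the NF-kB motif, EGR GCGTGGGCG, and the amino acid response motif TGATGCAA), so no letter is in capitals.
Ccl3 promoter: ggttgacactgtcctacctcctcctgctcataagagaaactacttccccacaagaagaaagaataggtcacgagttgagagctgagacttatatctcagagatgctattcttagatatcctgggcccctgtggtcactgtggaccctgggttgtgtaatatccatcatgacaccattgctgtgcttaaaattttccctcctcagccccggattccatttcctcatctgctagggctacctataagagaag

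Members were rare in both libraries. They made up 105 of 3899 cells that met the other limits in library 5 (2.69%, Clopper-Pearson interval 2.21% to 3.25%) and 108 of 4332 in library 6 (2.49%, interval 2.05% to 3.00%), and these intervals overlapped. Most cells of both libraries had no UMI of either chemokine, namely 3540 cells in library 5 and 3950 in library 6. Around the limit there was no gap. Library 5 had 15 cells with 4 UMIs and 11 with 5 UMIs, and library 6 had 18 and 8. Cells with 4 UMIs had a median chemokine level of 350 CPM in library 5 and 360 CPM in library 6, against 403 and 350 CPM in cells with 5 UMIs (CPM, UMIs scaled to a common total). The limit lay within a continuous range, with 254 and 274 comparison cells at 1 to 4 UMIs.

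The members differed widely among themselves in both chemokines. Ccl3 plus Ccl4 reached from 5 to 439 UMIs per cell in library 5, with a median of 14 and quartiles of 7 and 28. In library 6 the range was 5 to 777, with a median of 12.5 and quartiles of 8 and 22. The 10 cells with the most chemokine UMIs held 56.2% of all chemokine UMIs of the members in library 5 and 60.8% in library 6. At the other end, 39 and 41 members had only 5 to 9 UMIs.

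**Figure D1:**
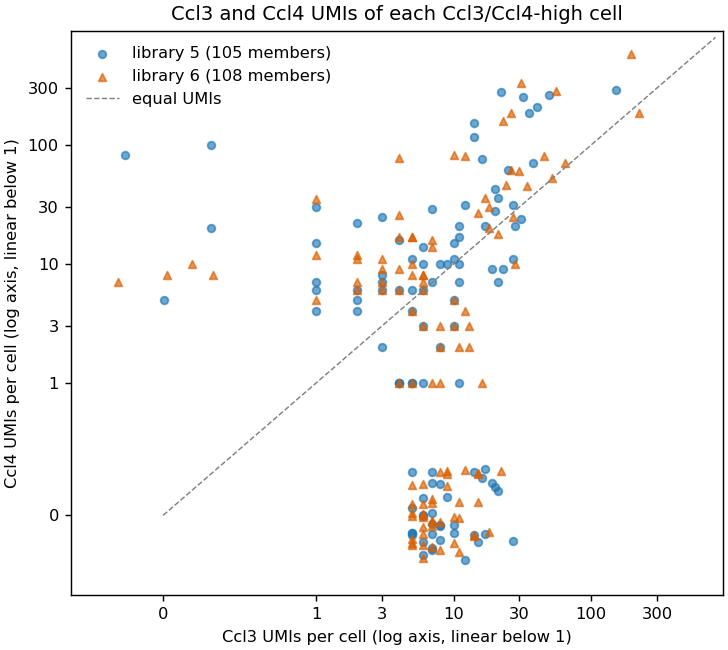
Ccl3 UMIs (horizontal) and Ccl4 UMIs (vertical) of each member on log axes that are linear below 1, with library 5 as circles and library 6 as triangles; values of 0 are spread sideways so that points can be seen, and the dashed line marks equal UMIs. A group of 35 members of library 5 and 41 of library 6 lies at 0 Ccl4, while the cells with the most UMIs lie mostly above the line.

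Ccl3 and Ccl4 did not keep a fixed proportion. Over all members the ratio of Ccl4 to Ccl3 UMIs was 2.16 in library 5 and 1.83 in library 6, counted at the 3' end without a length correction. Yet 56 of 105 and 60 of 108 members had more Ccl3 than Ccl4, and Ccl3 alone was detected in 35 and 41 members against Ccl4 alone in 4 and 4. In members with 5 to 9 chemokine UMIs the ratio was 0.291 and 0.258, in those with 10 to 19 UMIs 0.454 and 0.508, and in those with 20 or more 3.11 and 2.55. The plot of Ccl3 against Ccl4 shows this turn, in which Ccl4 led in the cells with the most UMIs and Ccl3 in the others. As the members were picked on these UMIs, the ratios are a description.

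Members also had more RNA captured than comparison cells. Their median was 14125 UMIs in library 5 and 12908 in library 6, against 8413 and 8462 in comparison cells, a ratio of 1.68 and 1.53. Among members, 10 (9.52%, interval 4.66% to 16.8%) and 14 (12.96%, interval 7.27% to 20.8%) lay above the 95th percentile of UMIs of all passing cells of their library, against 3.19% and 2.84% of comparison cells. A limit in UMIs favors deep cells, and the part of depth and of doublets in the values below was not tested. When each cell was thinned to 4000 UMIs, which left out 1 member of library 6 and 28 and 33 comparison cells of libraries 5 and 6, the median number of detected genes was 1312 in members and 1306 in comparison cells of library 5, and 1338 and 1324 in library 6. The median mitochondrial share was 6.81% and 6.90% in members and 7.32% and 7.29% in comparison cells.

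The members carried the RNA of B cells. Cd79a, a signaling chain of the B cell receptor, was detected in 105 of 105 and 108 of 108 members, and Ms4a1 (CD20) in 95 and 102. All 14 genes of the B cell identity list were measured above the minimum in members or comparison cells. Macrophage and monocyte markers were at 0 UMIs for 9 of 10 genes, Lyz2, Csf1r, and C1qa among them, and the tenth, Adgre1, had 1 UMI. Neutrophil markers were at 0 for 5 of 6 genes, with Csf3r at 2 and 1 UMIs. NK cell markers were at 0 for 7 of 8, with Prf1 at 2 and 1 UMIs, and basophil and mast cell markers were at 0 for 6 of 6. Dendritic cell markers summed to 2.49 and 4.13 CPM in members and to 4.53 and 5.71 CPM in comparison cells, with Flt3 the most abundant and Xcr1, Clec9a, Siglech, and Clec10a at 0. Erythroid markers summed to 6.22 and 8.27 CPM against 4.40 and 3.51 CPM, with Hbb-bt the most abundant and 4 of 5 genes at 0. With 1607991 and 1693410 UMIs in the members of libraries 5 and 6, a floor of 3 counts for a gene at 0 UMIs is 1.87 and 1.77 CPM, and the upper bound of the exact 95% Poisson interval is 2.29 and 2.18 CPM.

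The summed level of T cell markers was higher in members. It was 35.4 and 15.9 CPM in members against 6.18 and 5.85 CPM in comparison cells. Most of it was Lck, a Src-family kinase, at 31.7 and 13.6 CPM. Trac, the constant gene of the T cell receptor α chain, had 4 and 3 UMIs, and Cd3d had 2 and 1. Cd3e, Cd3g, Trbc2, Cd4, and Cd8a had none. Trac was detected in 3.81% and 2.78% of members against 0.132% and 0.237% of comparison cells. For Cd3d these shares were 1.90% and 0.926% against 0.0527% and 0.118%. Both were thus found in a larger share of members, but on few UMIs. After thinning to equal UMIs, the shares of Trac were 1.90% and 0% against 0% and 0.0716%. Those of Cd3d were 0.952% and 0.935% against 0.0266% and 0%. Xcl1, a chemokine of T and NK cells, had 17 UMIs in library 6, all in 1 cell, and none in library 5. Of the 15 other chemokine genes listed, 13 were at 0 in all members, Ccl2, Ccl5, and Ccl22 among them. The part of these T cell transcripts in the values below was not tested. No cell class that should lack a given gene was defined in these libraries, so a background from free RNA was not measured, and shares of cells with a UMI are read only against the comparison cells.

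The 4 other marker genes were higher in members, but by less than 2-fold when libraries are averaged. Il4i1 was at 197 and 190 CPM in members of libraries 5 and 6 and at 98.5 and 108 CPM in comparison cells, a mean ratio of 1.88. Grn was at 157 and 122 CPM against 78.8 and 78.7 CPM (mean ratio 1.76). Bcl2a1b was at 652 and 630 CPM against 446 and 439 CPM (mean ratio 1.45), and its counts are uncertain because the Bcl2a1 genes are near-identical copies. The fourth, Ly6k, was at 164 and 146 CPM against 113 and 97.9 CPM (mean ratio 1.47), and about the same share of cells had a UMI of it, 21 of 105 and 26 of 108 members against 18.3% and 17.4% of comparison cells. Each of the 4 was higher in members of both libraries, and none reached 2-fold in both. With at most 5% mitochondrial UMIs, which left 13 members, Ly6k and Il4i1 had no excess (log2 ratios of -0.09 and -0.03).

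Across all genes the 2 libraries gave like differences. Entered were 4545 genes with at least 20 CPM in members or in comparison cells of each library, without the genes of the rule. A gene was called when it differed at least 2-fold in the same direction in both libraries. Higher in members were 89 genes (1.96% of those entered), and lower were 21 (0.462%). No gene passed 2-fold in opposite directions, and 79.0% of genes had the same sign in both libraries. By any amount, 42.1% of genes were higher in both libraries and 36.9% lower in both, with a median log2 ratio of 0.02 in each library. Genes that pass the minimum through the members only had to be higher there. Such genes, below 20 CPM in comparison cells of at least 1 library, were 260 of all genes entered (5.72%) and 44 of the 89, so counts and medians here and in the lists below are a description. The counts differed with how cells were weighted. When comparison cells were weighted to the members' UMI numbers, 55 genes were higher and 9 lower, and when each cell counted equally, 158 were higher and 67 lower. With every cell thinned to 4000 UMIs, 154 were higher and 62 lower. Without library 5 the counts were 141 and 39, and without library 6 they were 146 and 63. There a gene had to pass the limits in 1 library only, so these counts could not be smaller than 89 and 21.

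**Figure D2:**
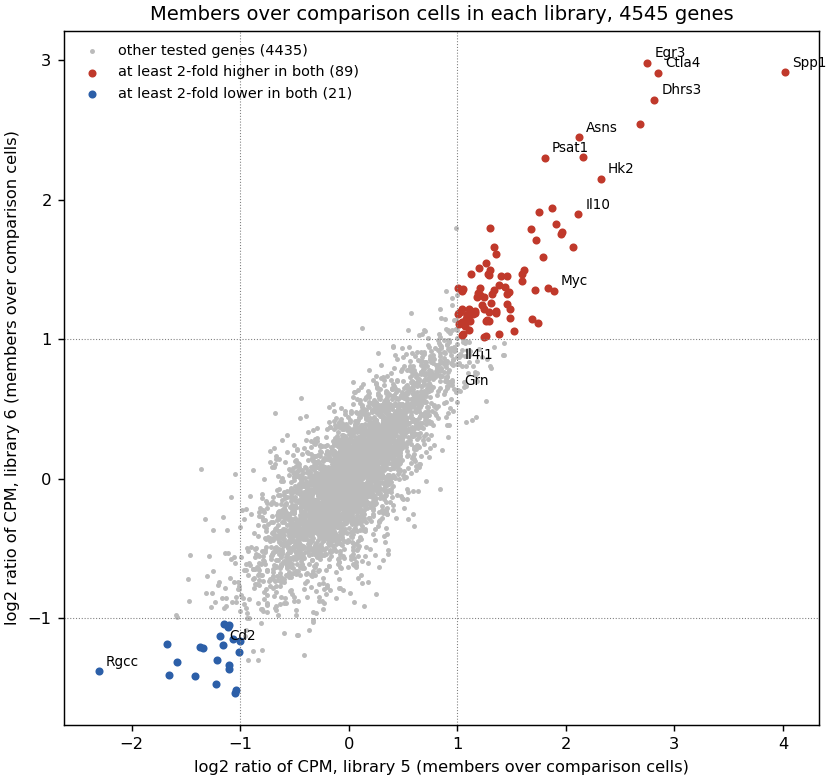
Log2 ratio of CPM, members over comparison cells, in library 5 (horizontal) and library 6 (vertical) for the 4545 genes entered; red points are the 89 genes at least 2-fold higher in both libraries, blue points the 21 at least 2-fold lower, and dotted lines mark 2-fold. Spp1, Ctla4, Egr3, and Dhrs3 lie farthest to the upper right, and Il4i1 and Grn lie near the line of 2-fold.

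The genes with the largest difference in members included secreted factors and a checkpoint receptor. Most of the 15 genes with the largest difference, Spp1, Ctla4, Egr3, and Il10 among them, were below 20 CPM in comparison cells. Such genes could enter only by being higher in members, so this ranking is a description. Spp1 (osteopontin, a secreted cytokine) was at 126 and 39.0 CPM in members and at 7.77 and 5.17 CPM in comparison cells, with log2 ratios of 4.02 and 2.92. It was carried by few cells, since 20 of 105 and 10 of 108 members had a UMI, and in library 6 a single cell held 65.2% of the UMIs, without which the level was 13.7 CPM. Ctla4, an inhibitory receptor best known from T cells, was at 21.1 and 22.4 CPM against 2.94 and 2.99 CPM, a mean ratio of 7.35, and 55.3% of its UMIs in library 6 were in 1 cell. It was detected in 12.4% and 11.1% of members and in 2.37% and 2.39% of comparison cells. After thinning to equal UMIs, these shares of Ctla4 were 8.57% and 4.67% against 0.982% and 1.24%. Without the 10 members of each library that had the most chemokine UMIs, the mean log2 ratio of Ctla4 was 1.73 in place of 2.88, while that of Spp1 was 3.54 in place of 3.47.

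Il10, the regulatory cytokine through which Bregs are commonly defined, was among these genes. It was at 53.5 CPM (interval 42.8 to 66.1) in members of library 5 and 37.2 CPM (interval 28.6 to 47.6) in library 6, against 12.4 and 10.0 CPM in comparison cells, a mean ratio of 4.01. Without the 10 members of each library with the most chemokine UMIs its mean log2 ratio was 1.40 in place of 2.00. At least 1 UMI of Il10 was found in 25 of 105 and 30 of 108 members, which is 23.8% and 27.8%, against 6.54% and 6.18% of comparison cells. In cells thinned to 4000 UMIs these shares were 9.52% and 14.02% against 3.29% and 2.79%. At least 5 UMIs were found in 5 members of library 5 and 1 of library 6. So most members had no Il10 UMI, and most cells with an Il10 UMI, 248 and 261 of them, were comparison cells. Among the other listed cytokines, Tnf was at 6.84 and 7.09 CPM against 2.56 and 2.80 CPM, and Il6 at 19.9 and 30.7 CPM against 19.7 and 19.5 CPM. Lower were Ltb (lymphotoxin β), at 189 and 335 CPM against 462 and 491 CPM, and Il12a, at 28.6 and 30.1 CPM against 48.4 and 47.7 CPM. Of 14 listed cytokine genes 4 were entered, 1 higher and 3 lower in both libraries (42.1% and 36.9% of all genes), with a median log2 ratio of -0.39. Genes of the lists named beyond the 4 with the largest mean difference were chosen after their values were seen, here and below.

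Most entered genes of the antigen receptor response list, which such signals are known to switch on quickly, were higher in members. Of 22 listed genes 13 were entered, of which 10 were higher in both libraries and 3 lower, and 2 passed 2-fold in both, Egr3 and Myc. Over all genes entered, 42.1% were higher in both libraries and 1.96% passed 2-fold. The median log2 ratio of the list was 0.84, against 0.01 over all genes entered, but 3 of its 13 genes, Egr3 and Myc among them, were below 20 CPM in comparison cells. Egr3, a zinc finger transcription factor, was at 37.9 and 41.9 CPM against 5.64 and 5.31 CPM, and was detected in 26.7% and 29.6% of members against 3.58% and 3.13% of comparison cells. Its relative Egr1 was at 67.2 and 62.6 CPM against 34.0 and 18.04 CPM. Nab2, a corepressor that binds Egr proteins, was among the 15 genes with the largest difference, at 21.1 and 23.6 CPM against 4.75 and 4.79 CPM. Myc, the growth regulator, was at 50.4 and 37.8 CPM against 13.6 and 14.9 CPM. Ier2, an early response gene, had a mean ratio of 2.14. The factor Batf was at 287 and 239 CPM against 142 and 134 CPM (mean ratio 1.90). The genes Jun, Jund, and Ier5 went the other way by little, with mean log2 ratios of -0.20, -0.07, and -0.18.

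Further genes of this list were too low to be entered and rest on few UMIs. Egr2 had 24 and 22 UMIs in members and 26 and 39 in the many more comparison cells, which gave log2 ratios of 4.41 (interval 3.55 to 5.27) and 3.81 (interval 2.99 to 4.60). Nr4a1, an orphan nuclear receptor widely used as a reporter of antigen receptor signals, was at 14.3 and 22.4 CPM against 2.29 and 2.11 CPM, and Nr4a3 had 4 and 4 UMIs against 2 and 5. Irf4, which directs activated B cells, was at 19.9 and 17.7 CPM against 2.59 and 3.105 CPM. Fos had only 4 and 1 UMIs in members, at 2.49 and 0.59 CPM against 1.19 and 0.59 CPM. Egr2, Nr4a1, and Irf4 were thus higher in both libraries by more than their counting intervals, while Fos was too rare to compare.

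Among the promoters of the genes that were at least 2-fold higher, 72 of 89 were matched in RefSeq, and 3 of these (4.17%) held the EGR motif GCGTGGGCG within 250 bases before the start, on either strand. The share was 0.990% of 3637 matched promoters of all genes entered and 0.540% of 27025 promoters. For the other motifs the shares in these 72 promoters and in the genes entered were 6.94% and 9.51% for E-box, 4.17% and 3.46% for CRE, 2.78% and 3.66% for AP-1, 1.39% and 1.48% for NF-kB, and 0% and 0.660% for the amino acid response motif. Over all promoters these shares were 6.05%, 1.62%, 6.87%, 1.40%, and 0.818% in the same order. For the lower genes only 16 of 21 promoters were matched, too few for such a share. The window of the marker Bcl2a1b, which was not called, held the EGR, AP-1, and amino acid response motifs. A match is a description of letters and not a bound site, and 3 promoters are few. The sets also passed the minimum in unlike ways. Below 20 CPM in comparison cells of at least 1 library were 44 of the 89 genes, Ifrd1 and Rasgef1b among them, against 5.72% of all genes entered. The 3 windows are shown with the EGR motif in capitals. Ifrd1 lies on the minus strand at chr12:40223190-40223439, Pfkp on the minus strand at chr13:6648772-6649021, and Rasgef1b on the minus strand at chr5:99252928-99253177 (GRCm38.p6).
Ifrd1: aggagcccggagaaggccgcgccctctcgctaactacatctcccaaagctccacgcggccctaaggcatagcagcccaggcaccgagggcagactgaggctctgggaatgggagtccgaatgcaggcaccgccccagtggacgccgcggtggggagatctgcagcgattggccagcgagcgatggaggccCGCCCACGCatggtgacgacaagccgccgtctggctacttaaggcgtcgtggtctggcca
Pfkp: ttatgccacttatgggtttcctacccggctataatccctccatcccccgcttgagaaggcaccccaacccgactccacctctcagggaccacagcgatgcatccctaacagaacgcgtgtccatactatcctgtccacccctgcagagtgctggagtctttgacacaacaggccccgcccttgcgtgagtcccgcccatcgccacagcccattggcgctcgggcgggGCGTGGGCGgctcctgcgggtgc
Rasgef1b: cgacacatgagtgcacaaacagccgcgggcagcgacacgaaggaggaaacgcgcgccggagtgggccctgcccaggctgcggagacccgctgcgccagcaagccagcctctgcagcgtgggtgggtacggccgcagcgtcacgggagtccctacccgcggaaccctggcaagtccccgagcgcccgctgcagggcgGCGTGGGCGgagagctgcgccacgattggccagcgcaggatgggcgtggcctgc
Of the 3, Ifrd1 (a regulator of transcription) was at 48.5 and 51.4 CPM in members against 13.2 and 13.4 CPM, and Pfkp (a phosphofructokinase of glycolysis) at 79.0 and 72.0 CPM against 22.8 and 24.0 CPM. The level of Rasgef1b, a guanine nucleotide exchange factor chosen here after its motif was seen, was 35.4 and 31.9 CPM against 11.8 and 11.97 CPM.

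Genes of amino acid metabolism and transport were higher in members where they could be entered. Of 12 listed genes 8 were entered, all 8 were higher in both libraries, and 7 were called higher, the eighth being Il4i1, against 42.1% and 1.96% of all genes. Their median log2 ratio was 1.62, and 4 of the 8, Slc7a5 and Asns among them, were below 20 CPM in comparison cells. Slc7a5 and Slc3a2, the 2 chains of the large neutral amino acid transporter, were at 34.8 and 27.8 CPM against 5.42 and 4.76 CPM, and at 87.7 and 107 CPM against 34.7 and 34.0 CPM. Asns (asparagine synthetase) was at 33.6 and 35.4 CPM against 7.71 and 6.49 CPM. The enzymes of serine synthesis Phgdh and Psat1 had mean ratios of 2.64 and 4.15, and Shmt2, which passes serine carbon to folate in mitochondria, had one of 2.65. Odc1, the first enzyme of polyamine synthesis, was at 105 and 112 CPM against 32.8 and 32.3 CPM. Ido1 and Slc7a11 had no UMI in any member or comparison cell of these libraries.

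The 15 genes with the largest difference also included Hk2, Mthfd2, Slc19a1, Timm8a1, Dhrs3, and Ung. Hk2 (hexokinase) was at 49.1 and 33.7 CPM against 9.85 and 7.58 CPM. It was detected in 44.8% and 37.0% of members against 7.96% and 6.46% of comparison cells. When cells were thinned to equal UMIs, these shares were 14.3% and 10.3% against 3.5% and 2.62%. Mthfd2, an enzyme of mitochondrial folate metabolism, was at 77.1 and 76.8 CPM against 22.9 and 20.4 CPM, and the folate carrier Slc19a1 at 26.1 and 22.4 CPM against 6.74 and 6.66 CPM. Timm8a1, a chaperone of mitochondrial protein import, was at 151 and 137 CPM against 40.1 and 38.6 CPM. It was the most widely detected of the 15, in 74.3% and 62.0% of members against 24.6% and 24.9% of comparison cells. In the thinned cells the shares of Timm8a1 were 41.9% and 38.3% against 11.7% and 12.7%. Dhrs3, a retinaldehyde reductase, was at 47.3 and 34.3 CPM against 6.72 and 5.21 CPM, and with at most 5% mitochondrial UMIs (13 members) its mean log2 ratio was 1.30 in place of 2.77. Ung, the uracil-DNA glycosylase, was at 31.1 and 26.0 CPM against 7.98 and 7.63 CPM. Of 15 listed glycolysis genes 12 were entered, 10 were higher and 1 lower in both libraries, and 2 were called (Hk2 and Pfkp), against 42.1% higher, 36.9% lower, and 1.96% called higher of all genes. Hk2 was the 1 gene of the list below 20 CPM in comparison cells. Their median log2 ratio was 0.43, with Ldha at a mean ratio of 1.92, Pgam1 at 1.58, and Gapdh at 1.21. Aldoa, whose symbol is shared by 2 gene identifiers, was read from the identifier with more UMIs.

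**Figure D3:**
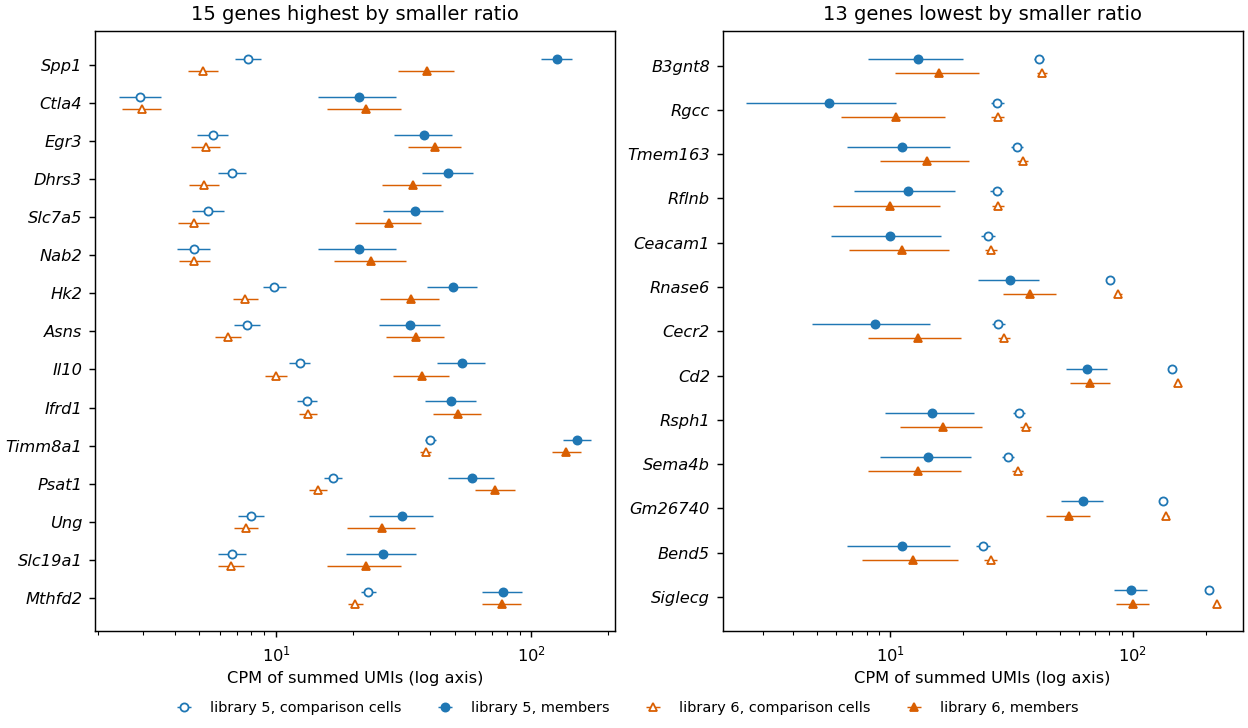
CPM of summed UMIs on a log axis for the 15 higher genes and 13 of the 15 lower genes with the largest difference, judged by the library with the smaller ratio; filled symbols are members, open symbols comparison cells, circles library 5, triangles library 6, and bars exact 95% Poisson intervals of counting error. For each gene shown both filled symbols lie on the same side of both open symbols, and their bars do not meet.

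Entered genes of DNA replication were higher in members, by less when comparison cells were weighted to the members' UMI numbers. Of 16 listed genes 11 were entered and all 11 were higher in both libraries, with a median log2 ratio of 0.84, and 1 of them (Mcm3) was called, against 42.1% higher and 1.96% called of all genes. Of the 11, 4 were below 20 CPM in comparison cells. Mcm3, a subunit of the replicative helicase, was at 70.9 and 62.0 CPM against 29.9 and 30.7 CPM. Pcna, the sliding clamp, was at 52.9 and 33.7 CPM against 19.6 and 18.2 CPM. Mcm5 and Mcm4 had mean ratios of 2.04 and 1.90. With comparison cells weighted to the members' UMI numbers the median of the list was 0.43 in place of 0.84, and the log2 ratio of Mcm3 was 0.61 in place of 1.13. In 13 of 14 alternatives Mcm3 was still at least 2-fold higher, this weighting being the exception. With at most 5% mitochondrial UMIs (13 members) Dut and Tyms turned direction, to log2 ratios of -1.59 and -0.60 from 0.60 and 0.48. The 8 mitotic genes of the rule summed to 35.4 and 47.2 CPM in members and 35.7 and 37.7 CPM in comparison cells. The rule limits the UMIs of these 8 genes in both groups, so their sums are a description.

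Of 17 listed genes of the NF-κB system 15 were entered, 11 were higher and 3 lower in both libraries, and 1 was called, where 42.1% of all genes were higher, 36.9% lower, and 1.96% called higher. Their median log2 ratio was 0.50. The called gene was Nfkbie, an inhibitor of NF-κB, at 64.1 and 57.9 CPM against 25.1 and 25.4 CPM. The subunit genes Nfkb1 and Rel had mean ratios of 2.14 and 2.01, Nfkbid, another inhibitor, had one of 2.07, and none of these 3 was called. Rela had a mean ratio of 0.93. Nfkbia, the most abundant gene of the list, was at 840 and 933 CPM against 789 and 836 CPM. In the heat shock list, 5 of 7 genes were entered and 4 were higher in both libraries (42.1% of all genes), with a median log2 ratio of 0.60. The called gene was Hspd1, the mitochondrial chaperone HSP60, at 452 and 489 CPM against 186 and 177 CPM, while Hsp90aa1 and Hspe1 had mean ratios of 1.56 and 1.51. With at most 5% mitochondrial UMIs (13 members) the log2 ratio of Hspd1 was 0.81 in place of 1.37, below 2-fold.

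Several called genes outside these lists were named after their values were seen. Tfrc, the transferrin receptor, was at 60.3 and 41.9 CPM in members against 16.9 and 16.3 CPM, and Srm (spermidine synthase) at 113 and 110 CPM against 34.2 and 33.7 CPM. Ncl, the major nucleolar protein nucleolin, was the called gene with the most UMIs, at 1112 and 1166 CPM against 490 and 474 CPM. The nucleolar genes Nolc1, Gnl3, and Nop58 had mean ratios of 2.70, 2.75, and 2.35. Mir155hg, the host gene of miR-155, was at 41.7 and 54.9 CPM against 16.9 and 15.8 CPM. Mif, a secreted cytokine, was at 496 and 508 CPM against 217 and 202 CPM. For each of these genes, the pooled values of members in both libraries lay above both pooled values of comparison cells. Choosing among called genes favors such a separation, so it is a description.

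The 15 genes with the largest deficit in members included Rgcc, Cd2, and Siglecg. Rgcc, a regulator of the cell cycle, had the lowest mean ratio of the 15 (0.28), at 5.597 and 10.6 CPM against 27.7 and 27.7 CPM, from only 9 and 18 UMIs. Cd2, an adhesion molecule, was at 64.7 and 66.7 CPM against 145 and 153 CPM. Siglecg, an inhibitory lectin of the B cell receptor, was at 98.3 and 99.8 CPM against 205 and 222 CPM.

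Another 10 of these lower genes had mean log2 ratios between -1.53 and -1.09. They were B3gnt8 (a glycosyltransferase), Tmem163, Rflnb, Ceacam1 (an adhesion molecule with inhibitory signaling), Rnase6, Cecr2, Rsph1, Sema4b, Gm26740, and Bend5. When comparison cells were weighted to the members' UMI numbers, Rsph1, Bend5, and Siglecg were below 2-fold in the mean of both libraries (log2 ratios of -0.996, -0.97, and -0.95). With at most 5% mitochondrial UMIs (13 members) B3gnt8, Bend5, and Sema4b were below 2-fold, at -0.53, -0.47, and -0.86. In the UMI weighting, 9 of the 21 genes passed 2-fold in each library.

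In the list of follicular B cells all 6 genes were entered, 4 were lower and 1 (Ccr7) higher in both libraries, and 1 was called, against 36.9% lower, 42.1% higher, and 0.462% called lower of all genes. The median log2 ratio was -0.31, with Fcer2a (CD23) at a mean ratio of 0.75. Klf2, a transcription factor that maintains S1pr1, was at 207 and 270 CPM against 455 and 489 CPM (mean ratio 0.50), and missed the call in library 6. S1pr1 and S1pr4, receptors for sphingosine 1-phosphate, had mean ratios of 0.51 and 0.48. Ccr7, which guides B cells toward the T cell zone, was at 182 and 202 CPM against 121 and 133 CPM (mean ratio 1.51). Of 12 listed chemokine receptors 5 were entered, 1 was higher and 3 were lower in both libraries, and none was called, few genes to set beside those shares, with a median log2 ratio of -0.20 and Cxcr5 at a mean ratio of 0.87. Ccr1 and Ccr2 had no UMI in members.

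Genes of B cell identity were lower by modest amounts. Of the 14 genes 11 were lower and 2 higher in both libraries, and none was called, against 36.9% lower, 42.1% higher, and 0.462% called lower of all genes. Their median log2 ratio was -0.41. Cd79a was at 2299 and 2458 CPM in members against 3208 and 3403 CPM in comparison cells, Cd79b at 1440 and 1570 CPM against 2287 and 2354 CPM, and Ms4a1 at 996 and 1054 CPM against 1566 and 1582 CPM. Bank1, a scaffold of B cell receptor signaling, had the lowest mean ratio of the list (0.64). Fcmr, the IgM Fc receptor, and Cd72, a coreceptor, were higher, with mean ratios of 1.96 and 1.42. With at most 5% mitochondrial UMIs (13 members) the log2 ratio of Fcmr was -0.49.

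In other B cell lists the medians were also below 0, where 36.9% of all genes were lower and 42.1% higher in both libraries. MHC class II genes were lower in both libraries for 9 of 10 genes entered, by a median log2 ratio of -0.26, with Cd74 at 6057 and 6575 CPM against 7274 and 7587 CPM and Ciita, their transactivator, at a mean ratio of 0.63. Of 17 entered genes of B cell receptor signaling 9 were lower, 2 higher, and 6 not of one sign, with a median of -0.20. Fcgr2b and Syk had mean ratios of 0.60 and 0.61. Of 6 entered immunoglobulin constant genes 5 were lower and 1 higher. Their median was -0.33, Ighm had a mean ratio of 0.78, and the Iglc genes are uncertain because their constant regions are near-identical. Of 8 entered interferon response genes 7 were lower and 1 higher, with a median of -0.34, and Ifi203 and Samhd1 had mean ratios of 0.61 and 0.67. None of the genes in these 4 lists was called, against 1.96% called higher and 0.462% called lower of all genes. The lists hold too few genes to read that count.

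**Figure D4:**
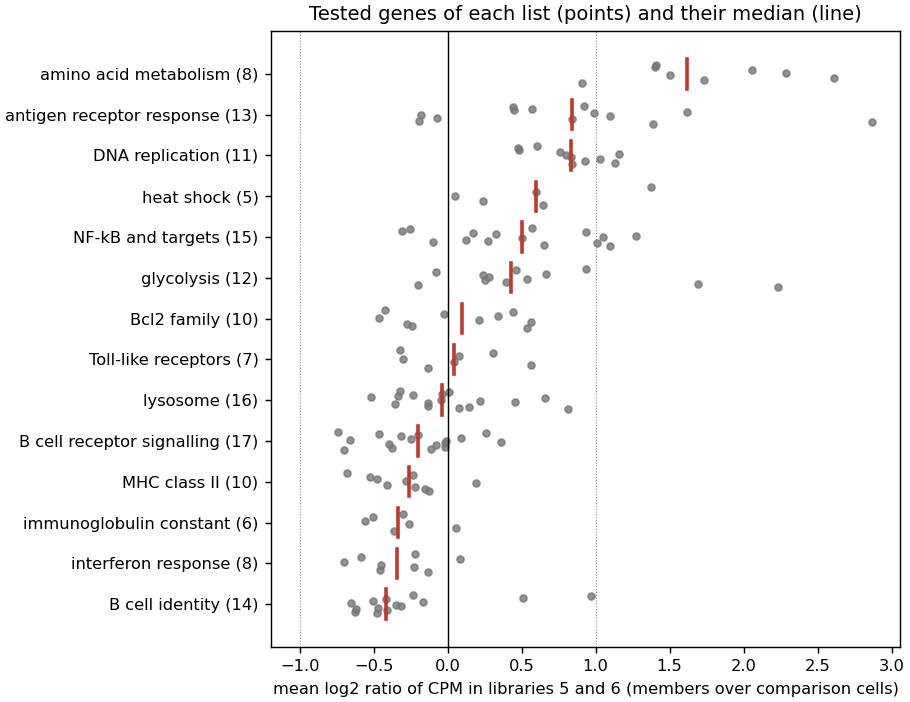
Mean log2 ratio of CPM in libraries 5 and 6 (members over comparison cells) of each gene entered in 14 gene lists, with the number of genes entered in brackets, the list median as a line, and 2-fold as dotted lines. The median of amino acid metabolism lies at 1.62, and that of B cell identity at -0.41.

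Markers of B cell subsets and of plasma cells were mostly low. Of 6 marginal zone markers 2 were entered, Mzb1 lower and Dtx1 higher in both libraries (mean ratios of 0.73 and 1.24), and Cr2 was at 3.73 and 5.31 CPM against 10.3 and 10.5 CPM and Cd9 at 4.35 and 6.50 CPM against 2.40 and 2.35 CPM. Of the B-1 cell markers, Cd5 had 2 and 0 UMIs in members, and Ctla4 was the only one entered. Of 5 markers of age-associated B cells 2 were entered and both were lower (36.9% of all genes), Zeb2 and Fcrl5, with mean ratios of 0.82 and 0.88. Tbx21 (T-bet) had 12 and 7 UMIs, at 7.46 and 4.13 CPM against 0.67 and 0.66 CPM, while Itgax had none in members. The plasma cell markers Sdc1 and Prdm1 were at 0.62 and 0 CPM and at 8.71 and 7.68 CPM, against 0.054 and 0.095 CPM and 11.2 and 13.1 CPM. Irf4, which is also on the plasma cell list, was not entered. It was higher in members, at 19.9 and 17.7 CPM against 2.59 and 3.105 CPM. Of 7 plasma cell genes 3 were entered, and all 3 were higher in both libraries, Derl3, Xbp1, and Txndc5, with mean ratios of 1.68, 1.11, and 1.02, where 42.1% of all genes were higher and 1 of these 3 was below 20 CPM in comparison cells. Cells with 5 or more Jchain UMIs had been left out by the rule.

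Genes of lysosomes, Bcl2 proteins, costimulation, and Toll-like receptors gave no common direction, where 42.1% of all genes were higher and 36.9% lower in both libraries. Of 16 lysosomal genes entered 6 were higher and 8 lower in both libraries (median log2 ratio -0.04), with Hexa at a mean ratio of 1.57. Cd63, a late endosomal tetraspanin, rested on 7 and 11 UMIs, at 4.35 and 6.50 CPM against 0.73 and 0.69 CPM. Of 10 Bcl2 family genes entered 5 were higher and 4 lower, with Bcl2a1d at a mean ratio of 1.48, Bbc3 at 0.73, and Mcl1 at 0.83 (median 0.09). Of 7 entered genes of Toll-like receptors and their partners 2 were higher and 2 lower, with a median of 0.04 and Cd180 at a mean ratio of 1.48. Among costimulatory genes 3 of 15 were entered, 1 higher and 2 lower, and Cd24a, Cd40, and Cd83 had mean ratios of 0.80, 0.97, and 1.09. Cd274 (PD-L1) was at 23.6 and 19.5 CPM against 14.9 and 14.5 CPM. In the Ly6 family, Ly6d, a marker of B cells abundant here, was at 5540 and 5275 CPM against 5289 and 5286 CPM, and Ly6a had a mean ratio of 0.65, so Ly6k was the only one of 4 entered genes that was higher in both libraries. Of 3 entered p53 targets 1 was lower in both libraries (Trp53inp1, mean ratio 0.59).

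Levels were also read across the range of chemokine UMIs. The bins use the values of the rule and the genes had been seen to differ, so the steps are a description, and a difference between the bins of members and the others is built in. Cells were binned by 0, 1 to 4, 5 to 9, 10 to 19, and 20 or more UMIs of Ccl3 plus Ccl4, with 3540, 254, 39, 26, and 40 cells in library 5 and 3950, 274, 41, 36, and 31 in library 6. Egr3 was at 4.86, 13.6, 37.4, 31.3, and 43.7 CPM in library 5 and at 4.56, 12.8, 19.5, 37.9, and 72.4 CPM in library 6. Cells with 1 to 4 UMIs, which are comparison cells, were thus already above those with none. Among the 3 bins of members, the intervals of Egr3 in library 5 overlapped. Il10 had no order there, with 56.0, 13.4, and 82.2 CPM in library 5 and 34.2, 18.03, and 61.0 CPM in library 6. Spp1 was at 289 and 87.6 CPM in the highest bin, against 6.43 and 3.94 CPM in cells without chemokine UMIs. In library 6 a single cell held 43 of the 46 Spp1 UMIs of that bin, and without the top cell of each bin the levels from the lowest to the highest bin of members were 1.71, 12.8, and 5.85 CPM. In library 5 they were 3.49, 41.4, and 230 CPM.

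Among the lower genes, Cd79b was at 2328 CPM in cells without chemokine UMIs and at 1116 CPM in the highest bin of library 5. In library 6 it was at 2385 and 1326 CPM. The fall was not at each step in library 5, with 1592.5 CPM at 5 to 9 UMIs and 1652.9 CPM at 10 to 19. Klf2 was at 465 and 496 CPM in cells with none and at 110 and 192 CPM in the highest bin. Ly6k had no order across the 3 bins of members, with 231, 110, and 136 CPM in library 5 and 92.9, 247, and 101 CPM in library 6. Median UMIs per cell moved with the bins, from 8321 and 8341 in cells with none to 14330 and 13198 in the highest bin, and the part of depth in these steps was not tested.

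**Figure D5:**
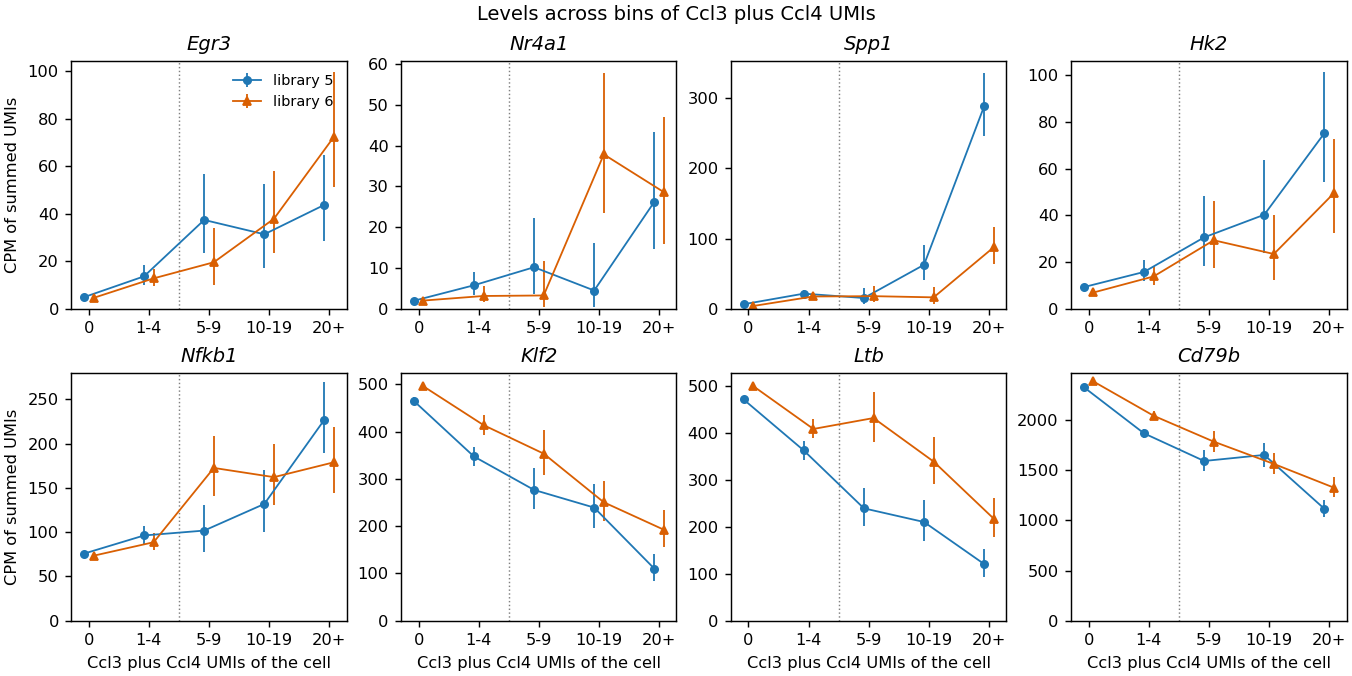
CPM of summed UMIs with exact 95% Poisson intervals for 8 genes in cells binned by Ccl3 plus Ccl4 UMIs, circles for library 5 and triangles for library 6, each panel from 0; members lie right of the dotted line. Egr3 and Hk2 are highest in the bin of 20 or more, as is Spp1, which in library 6 rests there on 1 cell (5.85 CPM without it), and Klf2, Ltb, and Cd79b are lowest there.

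The same rule found more cells in libraries 7 and 8, with smaller differences. There, 619 of 5268 cells (11.8%, interval 10.9% to 12.7%) and 460 of 3716 cells (12.4%, interval 11.3% to 13.5%) had at least 5 chemokine UMIs. Their median of 15 and 14.5 chemokine UMIs was near that in libraries 5 and 6, but the ratio of Ccl4 to Ccl3 UMIs was 6.07 and 6.17, and Ccl4 alone was detected in 194 and 133 cells against Ccl3 alone in 66 and 36. Egr3 had log2 ratios of 0.78 (interval 0.35 to 1.19) and 0.08 (interval -0.41 to 0.55), against 2.75 (interval 2.31 to 3.17) and 2.98 (interval 2.58 to 3.37) in libraries 5 and 6. Those of Il10 were 0.21 and 0.26, and those of Asns 0.16 and 0.08. In the 4 libraries these genes had separate intervals between the pairs of libraries, but no replicate of a known culture stands behind them and the difference was not tested. Depth also differed. Median UMIs of the Ccl3/Ccl4-high cells were 1.14 and 1.15 times those of comparison cells in libraries 7 and 8. In libraries 5 and 6 this ratio was 1.68 and 1.53, and the part of depth in the difference was not tested.

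The levels themselves differed between the pairs of libraries. Il10 was at 256 and 250 CPM in the comparison cells of libraries 7 and 8, above the 53.5 and 37.2 CPM of the members in libraries 5 and 6. Spp1 was at 1387 and 1107 CPM in those comparison cells, and Myc at 61.5 and 59.5 CPM. Ly6k and Grn were at 18.8 and 17.2 CPM and at 28.6 and 26.9 CPM in the Ccl3/Ccl4-high cells of libraries 7 and 8, below the members of libraries 5 and 6. Genes with like ratios in all 4 libraries were Bcl2a1b (0.55, 0.52, 0.51, and 0.47 on the log2 scale for libraries 5 to 8), Ccr7 (0.59, 0.61, 0.73, and 0.71), and Cd79b (-0.67, -0.58, -0.66, and -0.73).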

How the data were processed

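Single-cell libraries were made by the authors with the 10x Genomics Chromium 3' v3 chemistry, and reads were processed with Cell Ranger (version 3.1.0, mm10), as their processing notes and methods state, and combined over libraries. The deposited values are whole-number UMI counts per gene and cell. The paper states that its combining step also normalized the libraries, and whole numbers do not show whether this was done here. The matrix has 35989 columns and 19920 barcodes. Barcodes were set on the final columns in order. Mean expression shifted at the implied starts of libraries 5 and 7 (percentiles 99.3 and 100 of all columns), less at that of library 8 (91.8), and not at that of library 6 (52.4), so the border between libraries 5 and 6 rests on barcode order. The 16069 columns before them were not used. Libraries 5 to 8 held 47123451, 54703979, 64431719, and 46295477 UMIs, and 5 barcode sequences occur in both libraries 5 and 6 (29 in more than 1 library).

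UMIs were summed per library over members and comparison cells and divided by their total (CPM). Ratios were taken within each library, and the mean of both log2 ratios is a gene's value. A pool at 0 UMIs was set to 3 counts for a ratio, and no ratio was given where the other pool's level was below that floor or both pools had at most 3 counts. Intervals are exact Poisson, exact conditional (ratios), and Clopper-Pearson (SciPy 1.17.1, Python 3.11.15). TMM factors came from edgeR (version 4.0.16). Doublets were not called, and leaving out the deepest cells was one of the alternatives. Genes named are the 6 markers, the 15 higher and 15 lower called genes with the largest smaller-of-both-libraries ratio, and members of 32 gene lists with up to 4 examples each by size, plus genes chosen after their values were seen. The members and lists were chosen with earlier results of these data known. Gene positions are from GENCODE vM21, whereas the paper names an Ensembl release of mm10 as its reference, so positions may differ. Some genes that the rule names are not reported here.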

Additional observations from a re-analysis of the deposited data

How the results depend on the processing

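Of 15 alternatives, 2 were chosen after seeing the data, namely weighting comparison cells to the members' UMI numbers and leaving out the 10 members of each library with the most chemokine UMIs. The share of members, 2.59% of both libraries together, was 3.56% with at least 3 chemokine UMIs, 1.62% with at least 10, and 4.98% with at most 5% mitochondrial UMIs, where 13 members were left, and 2.49% to 2.69% with either library left out. Genes higher in members, 89, were 154 with at least 10 chemokine UMIs, 230 with at most 5% mitochondrial UMIs, 145 without the cells above the 95th percentile of UMIs, 158 by the mean of single cells, 154 with every cell thinned to 4000 UMIs, 269 with no minimum CPM, and 55 with comparison cells weighted to the members' UMI numbers. Genes lower in members, 21, were 49, 129, 78, 67, 62, 143, and 9 under the same settings in the same order, 49 with members taken by their chemokine share of UMIs (which shared 193 cells with the members), and 35 with a denominator without mitochondrial, ribosomal protein, and immunoglobulin genes. With either library left out, 141 to 146 genes were higher and 39 to 63 lower. In these 2 settings a gene had to pass the limits in 1 library only, so the counts could not be smaller than 89 and 21. The cause of the other differences in counts was not tested. Of the 89 and 21 genes, 52 and 9 were also called in the UMI weighting, and 79 and 17 after thinning. No sign changed among the 39 called genes that were named or listed, under the 13 or 14 alternatives that gave a value for each, whereas 58 of the other listed genes changed sign under at least 1 of them. No paired analysis was possible because no replicate number pairs libraries between cultures here. The samples of both cultures carry the same replicate numbers, but the barcodes tie no library to a sample. The contrast of members with comparison cells of the same library is the one reported.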
